A study of Mus musculus with 4 samples.

Results

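The genes described here encode the unfolded protein response and the folding machinery of the endoplasmic reticulum (ER), the compartment where membrane and secreted proteins are made. The set was fixed by name and holds 32 genes, of which 31 were listed under their own symbol in both expression tables, among 10679 rows of 1 table and 23284 rows of the other. The remaining gene, Mzb1, was found in both tables under its older symbol 2010001M09Rik and is given separately. The RNA came from 2 experiments on mouse T cells, with 2 libraries each. One set regulatory T cells (Treg) from the spleens of Balb/c Foxp3-hCD2 reporter mice, purified by human CD2, of untreated mice beside those of mice that drank 3% dextran sulfate sodium (DSS), which injures the colon epithelium, for 7 days. Both Treg groups carry the reporter, and the cells are those in which Foxp3 drives human CD2. The other used naive CD4 T cells taken from C57BL6 wild-type animals and transduced with a mock vector or with one carrying the transcription factor Sox12. The labels give neither the number of animals or cultures behind a library nor their age. Each group had 1 library, so no difference below has a replicate check and no test was run.

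Proteins enter the ER through the Sec61 channel and fold there with the help of chaperones, of which BiP (encoded by Hspa5) is the central one, and of enzymes that form disulphide bonds. When unfolded proteins build up, the membrane sensors IRE1 (Ern1), PERK (Eif2ak3) and ATF6 (Atf6) raise the output of folding and degradation genes, in part through Xbp1, whose messenger RNA is spliced by IRE1. ATF6 and spliced XBP1 act on a promoter sequence called the ER stress element (ERSE). Secretory cells such as plasma cells depend on this system, and T cells enlarge it when they are activated to secrete cytokines and granule proteins.

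Promoter sequences are shown because the folding genes and the sensors are described apart below and ATF6 and XBP1 act on the former through the ERSE. RefSeq promoter windows of build GRCm38.p6, from 250 bases before to 50 after the start site, were matched by symbol for 25 of the 32 genes. The full ERSE, searched on both strands as CCAAT and CCACG with any 9 bases between them, was found in the windows of 9 of the 25 genes (36%). The same letters occurred in the windows of 37 of 27025 genes of the RefSeq table (0.137%), and in 0.171% of the genes past the expression filter of the Treg table that could be matched. The 9 genes were Hspa5, Hsp90b1, Dnajc3, Calr, Canx, Pdia6, Creld2, Derl3 and Syvn1. The sites are shown in the direction of the motif, since some lie opposite to the gene, with the fixed letters in capitals:
Hspa5: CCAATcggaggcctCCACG
Hsp90b1, upstream site: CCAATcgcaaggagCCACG
Hsp90b1, downstream site: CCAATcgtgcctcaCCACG
Dnajc3: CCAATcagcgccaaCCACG
Calr: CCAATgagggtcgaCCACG
Canx: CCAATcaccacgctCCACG
Pdia6: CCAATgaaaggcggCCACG
Creld2: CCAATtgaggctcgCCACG
Derl3: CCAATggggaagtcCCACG
Syvn1: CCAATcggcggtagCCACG

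A related element, ERSE-II (ATTGG and CCACG with any 1 base between them, both strands), was found in 2 of the 25 genes and in 0.0444% of all genes. It lay in Herpud1 (ATTGGgCCACG) at chr8:94386377-94386387 and in Dnajb11 (ATTGGcCCACG) at chr16:22857852-22857862. The core TGACGTG, bound by XBP1 and by ATF6 and other factors of the CREB family, was found in 1 of the 25 genes, Hspa5, and in 2.22% of all genes. The shorter sequence CCACG, which is also the 3′ end of the ERSE and of ERSE-II, occurred in 20 of the 25 genes (80%) and in 35.5% of all genes, or 53.6% of matched genes past the filter of the Treg table. Of the members with the ERSE, Hspa5 had it closest to the start after Syvn1, between 65 and 47 bases upstream, and Hsp90b1 was the member with 2 copies. The 250 bases upstream of both genes are printed 5′ to 3′ along the gene, with the fixed letters of ERSE and TGACGTG in capitals, for Hspa5 at chr2:34771840-34772089 on the plus strand and for Hsp90b1 at chr10:86705445-86705694 on the minus strand:
Hspa5: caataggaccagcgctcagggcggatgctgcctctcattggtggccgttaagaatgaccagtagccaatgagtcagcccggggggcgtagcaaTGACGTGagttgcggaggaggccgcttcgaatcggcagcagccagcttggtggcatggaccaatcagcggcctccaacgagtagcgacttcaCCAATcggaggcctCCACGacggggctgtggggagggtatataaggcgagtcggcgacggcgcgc
Hsp90b1: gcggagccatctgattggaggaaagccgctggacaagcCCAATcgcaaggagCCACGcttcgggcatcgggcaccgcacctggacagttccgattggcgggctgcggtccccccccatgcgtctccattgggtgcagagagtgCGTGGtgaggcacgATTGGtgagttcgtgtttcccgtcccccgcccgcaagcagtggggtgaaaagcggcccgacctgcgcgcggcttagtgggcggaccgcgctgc

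**Figure D1:**
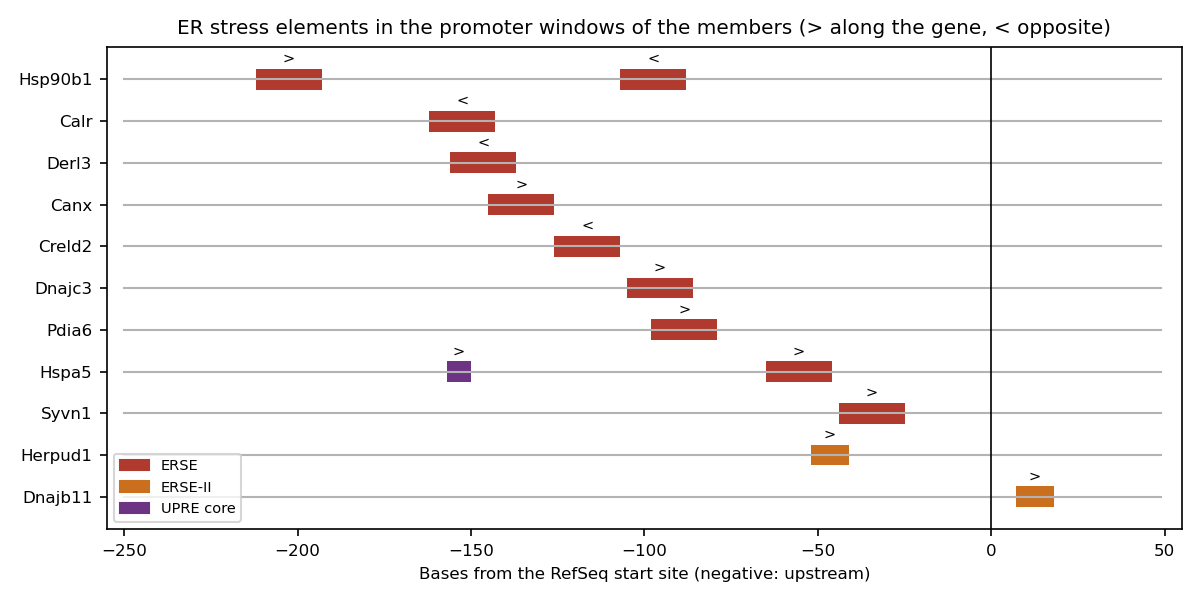
Position of the ERSE (red), ERSE-II (orange) and TGACGTG core (purple) in the promoter windows of the 11 members that hold one, in bases from the RefSeq start site, with an arrowhead for the strand. The ERSE of 9 members lay upstream of the start, and the ERSE-II of Dnajb11 lay after it.

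The vector libraries matched their labels in Sox12. The T cell genes and Foxp3 had similar levels in both Treg libraries, so they cannot show which of those was untreated and which DSS. Sox12 had 1.56 FPKM (fragments per kb of transcript, scaled to library size) in mock vector cells and 829 FPKM in Sox12 vector cells. The T cell genes Cd3e, Cd3g and Cd4 had between 185 and 473 FPKM in the 4 libraries, and Foxp3 had 88.2 and 84.9 FPKM in untreated and DSS Treg. The filter kept genes whose mean over the libraries of an experiment reached 1 FPKM, 10545 in the Treg table and 10822 in the vector table. A difference is given on the log2(FPKM + 1) scale, which understates that of low genes, and a ratio is of the FPKM themselves. In the Treg table the genes past the filter had a median difference of 0.05 and 5% lay below -0.20 and 5% above 0.31. In the vector table the median was -0.01, and the same limits were -0.68 and 0.98. Of the 9 T cell and Treg markers past the filter there, 6 were lower and 3 higher with the Sox12 vector. The highest of them lay at 2.55 and was the 1 marker of that list past 2-fold higher, beside 4.85% of all genes.

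The 31 listed members held 0.529% and 0.494% of the summed FPKM in untreated and DSS Treg, and 0.689% and 0.675% with the mock and Sox12 vectors. The tables were made separately, so levels are set side by side and not compared between them. In both tables the same 4 genes led, namely Calr (calreticulin, a lectin chaperone), Pdia3 (a disulphide isomerase that works with it), Hspa5 and Hsp90b1 (GRP94, the HSP90 of the ER). They carried 46.8% and 44.6% of the members' sum in untreated and DSS Treg and 47.6% and 49.1% with the mock and Sox12 vectors. In untreated Treg the order ran from Calr at 249 FPKM, above 98.5% of genes past the filter, to the sensor gene Ern1 at 2.80 FPKM. In mock vector cells it ran from Calr at 454 FPKM to Derl3, an ER degradation gene of secretory cells, at 0.746 FPKM. The median over the listed members was 32.5 FPKM in untreated Treg and 53.1 FPKM in mock vector cells, beside 12.5 and 12.8 FPKM over all genes past the filter.

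**Figure D2:**
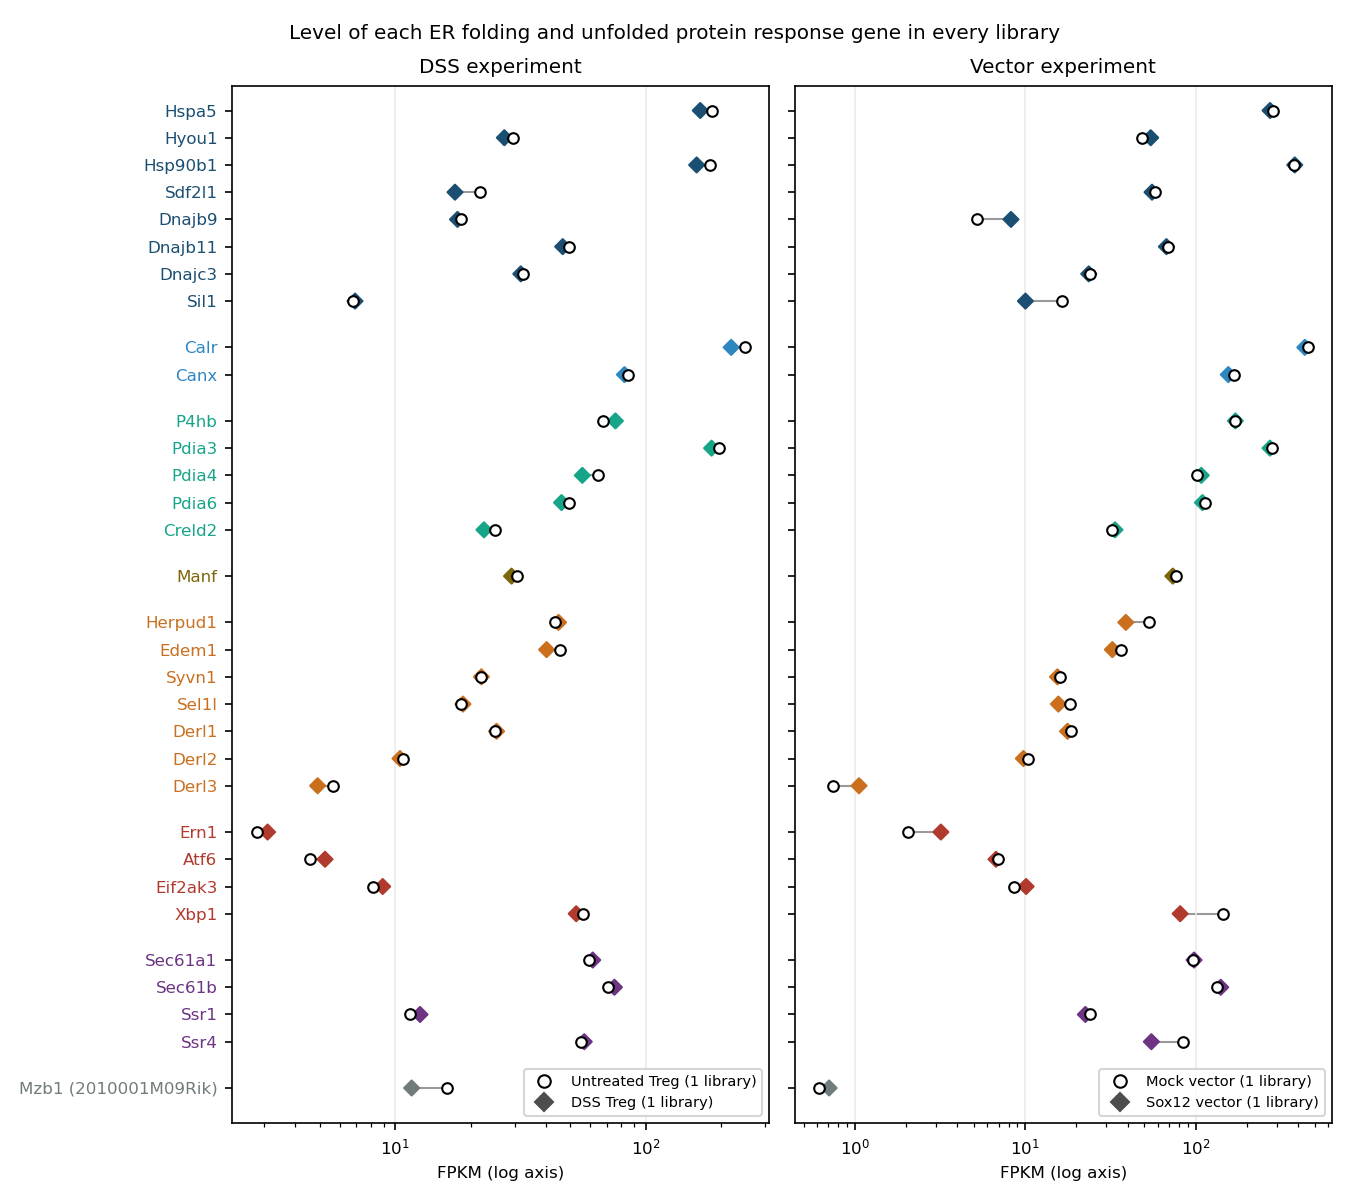
FPKM (log axis) of each member in every library, with the control library as an open circle and the treated library as a coloured diamond, and names coloured by role. In the Treg panel most folding genes in the upper rows have the diamond to the left of the circle, and in the vector panel Xbp1 (145 and 81.2 FPKM), Sil1, Ssr4, Herpud1, Dnajb9 and Ern1 show wide gaps.

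In Treg of DSS-treated mice the folding members were mostly a little lower than in untreated Treg. The 22 further ER folding genes outside the set did not share this, with 14 higher, 8 lower and a median of 0.04. The sensor and translocon genes were a little higher as deposited, as were most genes past the filter. Over all 31 listed members 18 were lower (58.1%) and 13 higher, with a median difference of -0.04, where 33.9% of all genes past the filter were lower and 66.1% higher. Of the 16 folding members, counting chaperones, lectins, disulphide enzymes and Manf, 14 were lower, with a median of -0.10. Of the 15 members of degradation, sensing and translocation 4 were lower and 11 higher, with a median of 0.04. All genes past the filter had a median of 0.05. That grouping of the roles was made after the values were seen. With the median difference of all genes set to 0, 15 of the 16 folding members and 9 of the 15 others were lower. At least 1.2-fold lower on the log2(FPKM + 1) scale was 1 of the 31 members, Sdf2l1, beside 2.95% of all genes, and 0 were at least 1.2-fold higher, beside 7.39%. None reached 1.5-fold, beside 0.446% of genes lower and 0.872% higher, or 2-fold, beside 0.0759% and 0.19%. Where the mean reached 20 FPKM, 14 of 21 members were lower and 7 higher, beside 35.2% and 64.8% of such genes, and 0 passed 1.2-fold, beside 2.67% lower and 2.84% higher.

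BiP, the HSP70 of the ER, is loaded and emptied by partner proteins. Of the 8 genes of BiP, its partners and GRP94, 7 were lower in DSS Treg, beside 33.9% of all genes. Hspa5 itself had 183 and 165 FPKM in untreated and DSS Treg, a difference of -0.15, and 7.98% of genes past the filter lay further down. Hsp90b1, which folds Toll-like receptors and integrins, had 181 and 160 FPKM (ratio 0.882). Sdf2l1, which keeps clients of BiP in solution, had 21.9 and 17.3 FPKM, a ratio of 0.792 and a difference of -0.32. It was the lowest listed member by that measure, with 1.85% of genes below it. Hyou1, the large HSP70 that exchanges nucleotide on BiP, had 29.5 and 27.3 FPKM. The J-domain partners of BiP differed less, with Dnajb11 at 49.2 and 46.6 FPKM, Dnajb9 at 18.3 and 17.7 FPKM and Dnajc3, also an inhibitor of PERK, at 32.5 and 31.7 FPKM. Sil1, the other nucleotide exchange factor, was the exception at 6.76 and 6.91 FPKM, and it too was lower after the median of all genes was set to 0 or after the 75th percentiles of both libraries were equalised.

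Both lectin chaperones, which hold glycoproteins until they are folded, were lower. Calreticulin (Calr) had 249 and 219 FPKM (ratio 0.881), and its membrane-bound relative Canx had 84.6 and 82.2 FPKM (ratio 0.972). Among the enzymes of disulphide bonds, 4 of 5 were lower. Pdia4 had 64.6 and 55.8 FPKM (difference -0.21, with 4.72% of genes below it), Pdia3 had 195 and 183 FPKM, Pdia6 had 49.4 and 46.1 FPKM and Creld2, a stress-induced relative, had 24.9 and 22.6 FPKM. P4hb, the classical protein disulphide isomerase, went the other way with 67.3 and 75.6 FPKM, a ratio of 1.12 that exceeded those of the other folding members. Manf, a secreted protein that is held in the ER by BiP, had 30.6 and 29.1 FPKM.

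ER-associated degradation returns misfolded proteins to the cytosol for the proteasome, and its 7 genes were divided. Edem1, which picks out misfolded glycoproteins, had 45.5 and 40.2 FPKM (ratio 0.883). Derl3 had 5.64 and 4.90 FPKM (ratio 0.869), and Derl2 10.7 and 10.5 FPKM. The ubiquitin ligase Syvn1 (HRD1) had 22.03 and 22.1 FPKM and its partner Sel1l 18.2 and 18.6 FPKM. Derl1 had 25.1 and 25.4 FPKM, and Herpud1, which organises the ligase complex, 43.3 and 44.9 FPKM (ratio 1.04). The median of the 7 was 0.00 as deposited and -0.05 with the median of all genes set to 0, which made 6 of them lower.

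All 3 sensor genes were higher in the DSS library. Atf6 had 4.57 and 5.25 FPKM (ratio 1.15), Ern1 2.80 and 3.10 FPKM (ratio 1.11) and Eif2ak3 8.18 and 8.91 FPKM (ratio 1.09). These ratios stood inside the spread of all genes, since 81.1% lay below the difference of Atf6 and 68.9% below that of Ern1. Xbp1, the transcription factor downstream of IRE1, was lower at 56.4 and 52.8 FPKM (ratio 0.936), and a value per gene does not separate its spliced from its unspliced form. The 4 translocon genes were higher as deposited, and Sec61a1 and Ssr4 became lower with the median of all genes set to 0. The channel subunits Sec61b and Sec61a1 had 70.6 and 74.96 FPKM and 59.4 and 61.4 FPKM. The translocon-associated subunits Ssr1 and Ssr4 had 11.5 and 12.6 FPKM and 55.3 and 56.8 FPKM.

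Mzb1, an ER protein of B lineage cells that helps to assemble antibodies, had 16.1 and 11.6 FPKM in untreated and DSS Treg under its older symbol 2010001M09Rik. Its ratio of 0.723 was lower than that of any listed member. It is a known marker of plasma cells and marginal zone B cells, and other such markers were present in these libraries. Igj, the antibody joining chain now named Jchain, had 277 and 231 FPKM (ratio 0.835). Of the 10 plasma cell markers past the filter 6 were lower and 4 higher, beside 33.9% and 66.1% of all genes. Their summed level was 364 and 319 FPKM, a difference that lay in Igj, and none that was listed stood at 0. At least 1.2-fold higher was 1 of them, Ell2 at 8.39 and 10.4 FPKM, beside 7.39% of all genes. At least 1.2-fold lower were 0, beside 2.95%. The 2 genes of that list that also belong to ER folding, Txndc5 (44.2 and 44.9 FPKM) and Fkbp11 (1.52 and 1.56 FPKM), were not lower. The B cell markers listed, Cd74, Cd79b and Cd79a, summed to 38.9 and 31.8 FPKM, with Cd74 at 30.2 and 22.6 FPKM and Cd79b at 5.48 and 5.23 FPKM lower and Cd79a at 3.19 and 3.92 FPKM higher, while Ms4a1 and Pax5 were not among the listed genes. Without Xbp1 and Derl3, which like Mzb1 are held at high levels by plasma cells, 16 of the 29 listed members left were lower, with a median of -0.03. Markers of red cell precursors were higher in 13 of 13 cases, with a summed level of 595 and 893 FPKM and Hbb-b2 at 2.34 and 8.05 FPKM. Those of basophils, mast and myeloid cells were higher in 8 of the 9 past the filter, and the 13 listed had a summed level of 38.5 and 71.2 FPKM. Among those higher were Mcpt8 (2.56 and 12.6 FPKM), Prss34 (2.44 and 8.35 FPKM), Ctsg (1.82 and 5.72 FPKM) and Cpa3 (1.79 and 5.16 FPKM), while Lyz2 (8.30 and 6.36 FPKM) and, below the filter, the neutrophil genes S100a9 (1.19 and 0.449 FPKM) and S100a8 (1.08 and 0.678 FPKM) went the other way. The part of these cells in the values of the members was not tested, and in bulk RNA fewer cells of a type and less RNA per cell cannot be told apart.

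Most members with an ERSE in their promoter window were lower in the DSS library. Of the 9, 8 were lower as deposited, beside 33.9% of all genes, with a median of -0.13 and a range from -0.18 for Calr to 0.00 for Syvn1, and 9 were lower under each of the 3 other scalings. Of the 16 matched members without an ERSE 8 were lower and 8 higher, with a median of -0.0023. All members with an ERSE except Derl3 and Syvn1 were folding members, and most of those without were not. The promoter classes thus overlap the role groups, which were made after the values were seen, and the groupings were not told apart. Among folding members without an ERSE, Sdf2l1, Pdia4, Pdia3, Dnajb11 and Dnajb9 were lower and P4hb was higher. The untreated levels of the classes had medians of 49.4 and 44.4 FPKM in untreated Treg, and Sdf2l1 and Pdia4, the 2 lowest listed members, had no full ERSE in the window. In the vector table the 8 members with an ERSE past the filter had a median of -0.05 and lay between -0.11 and 0.06, and the 16 without had a median of -0.05 and lay between -0.83 and 0.57.

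**Figure D3:**
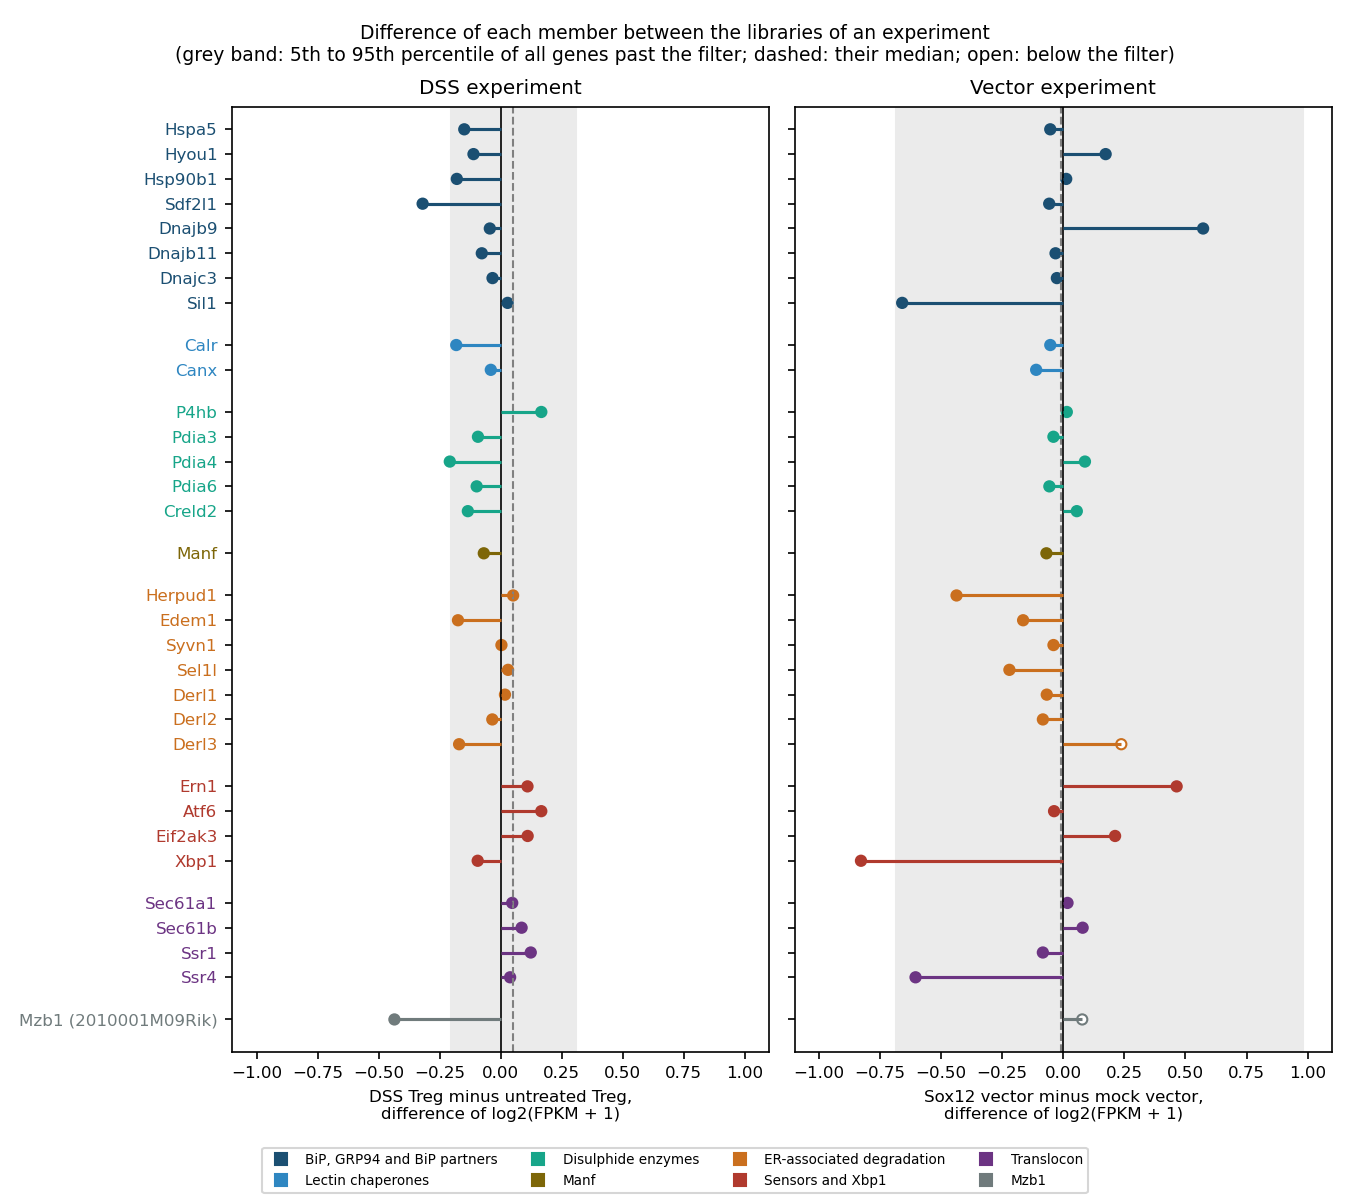
Difference of log2(FPKM + 1) of each member, DSS minus untreated Treg on the left and Sox12 minus mock vector on the right, with the 5th to 95th percentile of all genes as a grey band and their median as a dashed line. On the left Sdf2l1, Pdia4 and Mzb1 lie past the lower edge of the band, and on the right Xbp1 does.

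With the Sox12 vector most folding members differed little from the mock vector, and a few members differed more. This did not extend to the 23 further ER folding genes outside the set, described below. Their median was -0.25, with 17 lower and 6 higher. Of 30 members past the filter 20 were lower (66.7%) and 10 higher, with a median difference of -0.05, where 51.1% of all genes were lower and 48.9% higher. With equal totals after the 20 highest genes were left out, 12 were lower and 18 higher, with a median of 0.01. At least 1.2-fold lower were 4 members (13.3%), namely Xbp1, Sil1, Ssr4 and Herpud1, beside 21.2% of all genes, and these 4 calls remained under that scaling, where 3 members were at least 1.2-fold higher, Eif2ak3 among them. At least 1.2-fold higher were 2 members (6.67%), Dnajb9 and Ern1, beside 22.3% of all genes. At least 1.5-fold lower were 3 (Xbp1, Sil1 and Ssr4), beside 6.88% of genes, and 0 higher, beside 10.1%. Where the mean reached 20 FPKM, 14 of 21 members were lower and 7 higher, beside 54% and 46% of such genes, and 3 were at least 1.2-fold lower and 0 higher, beside 19.7% and 16.8%. The median size of the difference was 0.06 for those 21 members and 0.19 for those genes. None of the 30 reached 2-fold, beside 1.91% of all genes lower and 4.85% higher.

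Xbp1 showed the largest difference of the set, at 145 and 81.2 FPKM in mock and Sox12 vector cells. Its ratio was 0.560 and its difference -0.83, below which lay 3.04% of all genes. The sensor genes differed in direction. Ern1, whose product splices the Xbp1 transcript, was higher at 2.04 and 3.20 FPKM (ratio 1.56), Eif2ak3 was higher at 8.60 and 10.1 FPKM (ratio 1.18) and Atf6 had 6.94 and 6.74 FPKM (ratio 0.970). Dnajb9 (ERdj4), a J-domain protein that restrains IRE1 and is a known target of spliced XBP1, had 5.22 and 8.25 FPKM, a ratio of 1.58. Set against Xbp1 in the same library, Dnajb9 stood at 0.0360 of its level with the mock vector and at 0.102 with the Sox12 vector, a 2.82-fold higher ratio. In Treg the same ratio was 0.325 and 0.336. Among members past the filter of the vector table Dnajb9 had the highest and Xbp1 the lowest difference, so their ratio restates these values. Spliced and unspliced Xbp1 are not separated here either.

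The chaperones themselves were close to their mock vector level. Hspa5 had 284 and 274 FPKM (ratio 0.963), Hsp90b1 379 and 382 FPKM (ratio 1.01) and Calr 454 and 438 FPKM (ratio 0.964). Their direction depended on the scaling, since Hspa5 and Calr became higher when totals were made equal without the 20 highest genes, and Hsp90b1 became lower with equal 75th percentiles. Canx had 168 and 156 FPKM, and Hyou1, which was higher under every scaling run, had 48.2 and 54.5 FPKM (ratio 1.13). Sdf2l1 (57.8 and 55.5 FPKM), Dnajb11 (68.9 and 67.4 FPKM) and Dnajc3 (24.1 and 23.6 FPKM) had ratios between 0.960 and 0.981. Sil1 stood apart from the other BiP partners at 16.4 and 10.03 FPKM, a ratio of 0.611. The level of Hspa5 was 17.3 times that of Sil1 with the mock vector and 27.3 times with the Sox12 vector.

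The disulphide enzymes and Manf were equally close. P4hb had 169.6 and 171 FPKM, Pdia3 281 and 273 FPKM, Pdia4 102 and 108 FPKM, Pdia6 114 and 109.8 FPKM and Creld2 32.4 and 33.6 FPKM, all with ratios from 0.961 to 1.06. Manf had 77.2 and 73.5 FPKM (ratio 0.952). All 6 degradation genes past the filter were lower as deposited, beside 51.1% of all genes. With equal totals without the 20 highest genes 5 of the 6 were lower, beside 44.1% of all genes. Herpud1 led the 6 at 53.1 and 39.0 FPKM (ratio 0.734), followed by Sel1l at 18.4 and 15.7 FPKM (ratio 0.850) and Edem1 at 36.5 and 32.5 FPKM (ratio 0.889). Derl1 (18.6 and 17.7 FPKM), Derl2 (10.4 and 9.76 FPKM) and Syvn1 (15.9 and 15.5 FPKM) differed by less. Derl3 was below the filter at 0.746 and 1.06 FPKM. The 24 further degradation genes outside the set, described below, had 15 higher and 9 lower, with a median of 0.10.

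The translocon subunits differed among themselves. Ssr4, the delta subunit of the translocon-associated complex, had 84.2 and 55.01 FPKM (ratio 0.653), while Ssr1, its alpha subunit, had 23.96 and 22.6 FPKM (ratio 0.941). Sec61b had 133 and 140.5 FPKM and Sec61a1 96.8 and 98.0 FPKM. The beta and gamma subunits Ssr2 (142 and 154 FPKM) and Ssr3 (108 and 117 FPKM), which are not in the set, were a little higher. Mzb1, under its older symbol, had 0.617 and 0.706 FPKM, below the filter.

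Counting error could be estimated in the vector table, where 1 FPKM rested on about 42.9 and 44.9 fragments per kb of transcript with the mock and Sox12 vectors. With the shortest principal transcript of each gene in the GENCODE vM21 annotation, the members rested on about 42 to 45960 mock vector fragments. The 95% exact interval of the ratio ran from 0.545 to 0.576 for Xbp1, from 0.557 to 0.669 for Sil1, from 0.616 to 0.693 for Ssr4 and from 0.701 to 0.767 for Herpud1. It ran from 1.42 to 1.76 for Dnajb9 and from 1.41 to 1.73 for Ern1. For Derl3, with about 42 and 63 fragments, it ran from 0.956 to 2.17. Of 31 members, 19 had an interval that left out 1, Hspa5 (0.949 to 0.979) and Calr (0.951 to 0.977) among them, so at this depth differences of a few percent exceed counting error. These intervals cover counting error only and not the scaling, the preparation of the libraries or the cultures. Hspa5 and Calr, for example, became higher when totals were made equal without the 20 highest genes. The depth of the Treg libraries is unknown.

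**Figure D4:**
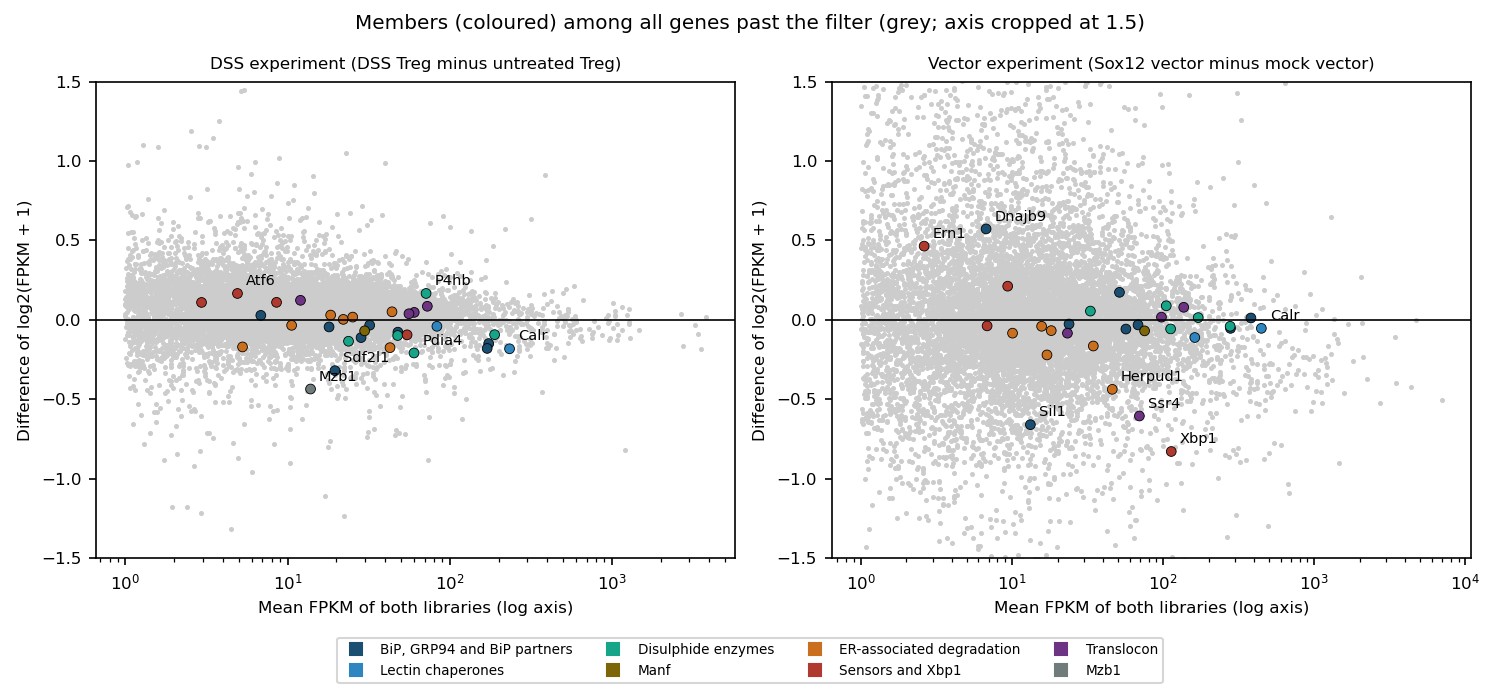
Difference of log2(FPKM + 1) against the mean FPKM (log axis) of all genes past the filter (grey) and of the members (coloured by role), with the axis cropped at 1.5 so that 11 genes in the Treg panel and 315 in the vector panel are not shown. In the vector panel the most abundant members lie near 0 and Xbp1, Ssr4, Herpud1 and Sil1 below it.

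Other genes of the pathway came from lists named beside the members. Of all genes past the filter 66.1% were higher in DSS Treg and 51.1% lower with the Sox12 vector. In DSS Treg, the list of the PERK arm, the branch that lowers translation and raises the transcription factor ATF4 and its targets, had 13 of 14 genes higher and 1 lower, with a median of 0.18, and 12 of 14 were higher under each of the other scalings. Of these, 4 were at least 1.2-fold higher and 0 lower, beside 7.39% and 2.95% of all genes. Atf4 itself had 93.2 and 100.5 FPKM and Ddit4, a stress-induced inhibitor of mTORC1, 203 and 239 FPKM. With the Sox12 vector the same list had 14 of 16 genes lower, with a median of -0.36, and 11 of 16 with equal totals without the 20 highest genes. There, 9 were at least 1.2-fold lower and 1 higher, beside 21.2% and 22.3% of all genes. Atf4 had 266 and 203 FPKM (ratio 0.763) and the ATF4 target Asns, asparagine synthetase, 98.2 and 55.9 FPKM (ratio 0.569). These genes also answer to amino acid supply, so the list is not specific to ER stress.

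All genes past the filter were higher in 66.1% of cases in DSS Treg and in 48.9% with the Sox12 vector. The Treg counts of most lists below lay near that share as deposited. Further ER folding genes had 14 of 22 higher in DSS Treg (median 0.04), among them Ppib, a prolyl isomerase, at 179 and 193 FPKM and Erp29 at 44.3 and 50.6 FPKM. With the median of all genes set to 0, 9 of the 22 were higher. With the Sox12 vector 17 of 23 were lower (median -0.25). At least 1.2-fold lower were 9 and higher 1, beside 21.2% and 22.3% of all genes. Ero1l, the oxidase that recharges the disulphide isomerases, had 64.2 and 28.8 FPKM, a difference of -1.13, and was the 1 gene of that list past 2-fold. In the list of further degradation genes 18 of 24 were higher in DSS Treg, with Aup1 at 99.03 and 109.9 FPKM and Os9 at 44.1 and 47.2 FPKM, and 15 of 24 with the Sox12 vector, with Aup1 at 114 and 96.2 FPKM and Vcp, the ATPase that pulls proteins out of the ER, at 71.4 and 77.0 FPKM. Further translocation genes had 13 of 20 and 9 of 20 higher, with Sec11c at 95.4 and 95.9 FPKM and Srp14 at 83.1 and 81.9 FPKM in the Treg libraries, and 11 of 20 were higher in DSS Treg with the median of all genes set to 0. Genes of N-glycosylation in the ER, which attach the oligosaccharide or trim its glucose, had 9 of 14 higher in DSS Treg as deposited and 3 of 14 with that median set to 0 (Dad1 at 112 and 115 FPKM, Ost4 at 98.0 and 108 FPKM) and 10 of 14 lower with the Sox12 vector (Dad1 at 186 and 179 FPKM, Ost4 at 193 and 129 FPKM). Genes of transport between ER and Golgi had 19 of 27 higher in DSS Treg as deposited and 8 of 27 with that median set to 0 (Tmed2 at 122 and 130 FPKM, Sec24c at 61.1 and 63.2 FPKM) and 20 of 27 lower with the Sox12 vector, or 16 of 27 with equal totals without the 20 highest genes (Tmed2 at 201 and 196 FPKM, Arcn1 at 85.4 and 80.0 FPKM). The remaining regulators of the response had 14 of 21 higher in DSS Treg, or 6 of 21 with that median set to 0, and 11 of 22 higher with the Sox12 vector, with Tmbim6, an inhibitor of cell death in the ER membrane, at 180 and 172 FPKM in Treg and 136 and 110 FPKM with the vectors, Serp1 at 81.2 and 82.8 FPKM in Treg and Bax at 104 and 108 FPKM with the vectors.

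Chaperones outside the ER were also mostly lower in DSS Treg. Of the cytosolic and mitochondrial chaperones 22 of 27 were lower, beside 33.9% of all genes past the filter, with a median of -0.10. At least 1.2-fold lower were 5, beside 2.95% of all genes. Hspa8 had 683 and 623 FPKM and Hsp90ab1 545 and 464 FPKM (ratio 0.851). With the Sox12 vector 20 of 27 were lower, beside 51.1% of all genes, with a median of -0.07. With equal totals without the 20 highest genes 15 of 27 were lower. Dnajb4 had 3.70 and 13.6 FPKM, while the near-identical heat shock genes Hspa1a (3.82 and 1.39 FPKM) and Hspa1b (3.80 and 1.36 FPKM), whose split is uncertain, were lower. Proliferation genes were higher in 20 of 20 cases in DSS Treg, beside 66.1% of all genes, with Pcna at 132 and 145 FPKM and Mcm6 at 39.3 and 44.5 FPKM. With the Sox12 vector 12 of 20 were lower, or 10 of 20 with equal totals without the 20 highest genes, with Pcna at 352 and 349 FPKM and Top2a at 192 and 224 FPKM.

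**Figure D5:**
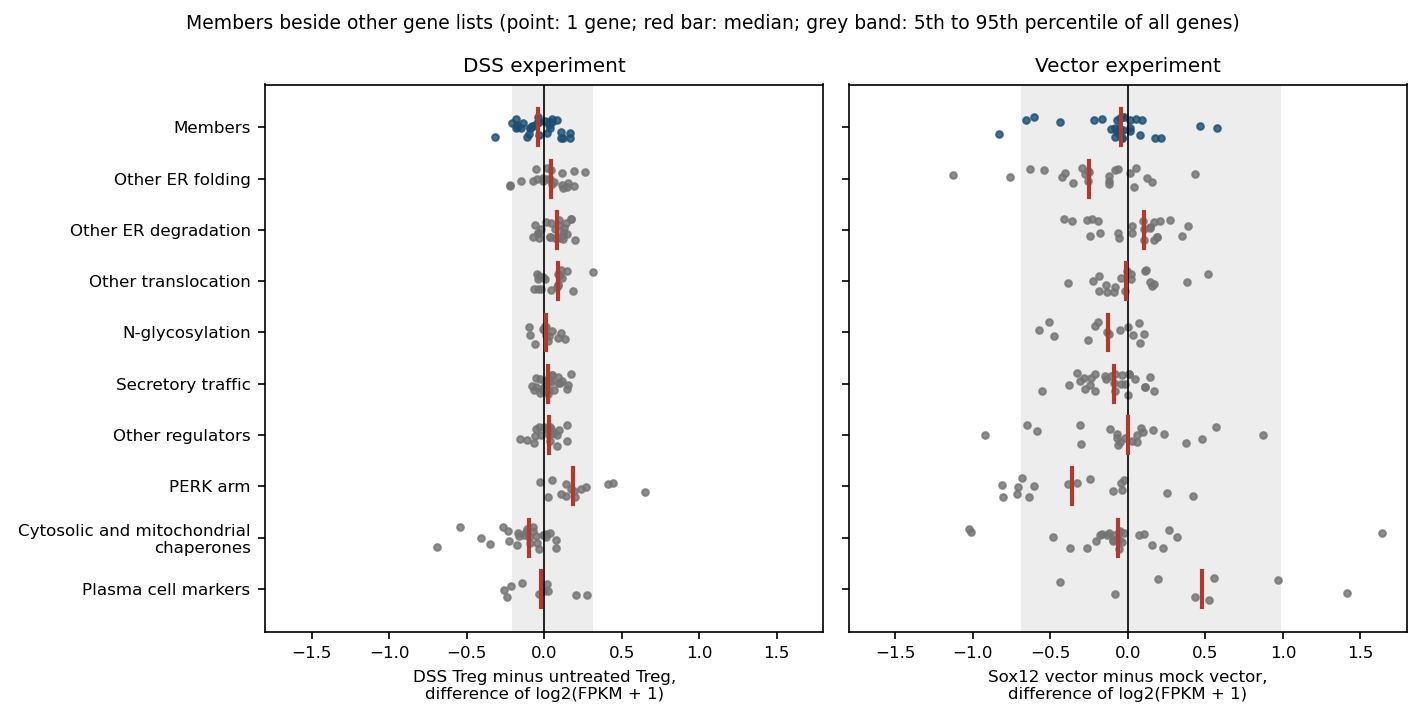
Difference of log2(FPKM + 1) of the members and of 9 other gene lists, with 1 point a gene, the median as a red bar and the 5th to 95th percentile of all genes as a grey band. The PERK arm list lies to the right of 0 in the DSS panel, with a median of 0.18, and to the left in the vector panel, with a median of -0.36.

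Secreted proteins of T cells, the cargo of this machinery, differed widely with the Sox12 vector. A list of 20 cytokines, chemokines and granule proteins summed to 2723 and 5208 FPKM in mock and Sox12 vector cells, a ratio of 1.91, while the 31 members summed to 2937 and 2787 FPKM. Granzyme B (Gzmb) was the highest of the list in both libraries at 708 and 2735 FPKM, and most of the difference in the summed level of the list lay in it. It was followed in mock vector cells by lymphotoxin alpha (Lta), which was lower with the Sox12 vector at 604 and 430.2 FPKM. Others that were higher were Gzmc at 191 and 458 FPKM, Ccl3 at 166 and 449 FPKM and interferon-gamma (Ifng) at 41.3 and 191 FPKM. Of the 18 cargo genes past the filter 9 were higher and 9 lower, beside 48.9% and 51.1% of all genes. At least 2-fold higher were 7 and lower 3, beside 4.85% and 1.91%, and the differences ran from -1.94 to 4.12. Of the 20 cargo genes, 13 were listed in the Treg table, and they summed to 154 and 152 FPKM, with Ccl3 at 0.288 and 2.83 FPKM, and the members to 1727 and 1628 FPKM. Plasma and B cell markers varied in level in the transduced cells. Igj had 0.274 and 0.337 FPKM, Tnfrsf17 was listed at 0 in both, and the 10 plasma cell markers listed summed to 99.4 and 119 FPKM, most of it from Ell2 (49.1 and 56.3 FPKM) and Txndc5 (36.5 and 34.4 FPKM). Slamf7 had 4.32 and 13.2 FPKM. Red cell markers summed to 317 and 216 FPKM, with Hbb-b1 at 46.6 and 9.27 FPKM and Gata1 at 3.49 and 8.80 FPKM, and the B cell marker Cd74 had 37.7 and 27.5 FPKM. Basophil and myeloid markers summed to 0.973 and 1.31 FPKM, and 0 of 15 passed the filter.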

How the data were processed

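Expression was measured by RNA sequencing in 4 libraries, and each table column was matched to its library by name and title. The authors deposited FPKM and a fold change (ratio) for the Treg experiment, and log2(FPKM + 1) values with their log2 difference for the vector experiment. The scale of the latter was read from the values. Recomputing the authors' ratio and log2 difference gave the deposited values to within 0.000449 (relative) and 5e-10. The submitters' processing notes name Cufflinks and mm9, while no aligner, annotation or use of strand is named there or in the labels (not given in the sources used here). Several members overlap exons of other genes, at most 10.3% of their exon bases (Hsp90b1) apart from Mzb1 (57.2%). Reads of such genes may be shared.

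Spreadsheet date rows were left out, 16 in the Treg table and 25 in the vector table. The log2 values were turned back to FPKM, and differences use a pseudocount of 1 FPKM and genes whose mean reached 1 FPKM, in Python 3.11.15 with pandas 2.3.3 and scipy 1.17.1. The steps were tested on simulated data. All members are named, and of each other list up to 4 genes past 2-fold or else the 2 with the highest mean. An exception is the T cell and Treg markers in the vector libraries, where the gene past 2-fold is not named. Fkbp11, Cd4, Cd79a, Tnfrsf17, Ell2, Lta, S100a8, S100a9, Lyz2, Alg12, Ero1lb and, for the vector libraries, Igj, Txndc5, Cd3e and Cd3g were named beyond that rule after their values were seen. Members and lists were chosen with earlier results of these data known. Alternatives were other pseudocounts, filters and scalings and leaving out Xbp1, Mzb1 and Derl3. Of these, Mzb1 was not among the members counted, and Derl3 was below the filter of the vector table. Protein sequences were not used here.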

Additional observations from a re-analysis of the deposited data

How the results depend on the processing

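No paired analysis was possible because each group had 1 library. No library could be left out for the same reason, and no difference here has an error from replicates. In the Treg table the median of the members stayed below 0 in every alternative run, from -0.09 with the median of all genes set to 0 to -0.03 without Xbp1 and Derl3. The count of members at least 1.2-fold lower was 2 in place of 1 with Mzb1 under its older symbol, and 0 where the mean had to reach 20 FPKM, both chosen after seeing the data. In the vector table, equal totals without the 20 highest genes turned the median from -0.047 to 0.0090 and moved the count of lower members from 20 to 12, a scaling that shifted the median of all genes by 0.05. The count at least 1.2-fold higher there was 1 in place of 2 with a pseudocount of 5 FPKM or with a filter at a mean of 5 FPKM, 0 with a filter at 20 FPKM and 3 under the scaling that leaves out the 20 highest genes. Under the 3 scalings 25 of 31 members kept their direction in the Treg table and 19 of 30 in the vector table. Of single members past 1.2-fold, none reversed under any alternative run. With a pseudocount of 5 FPKM the difference of Ern1 was 0.22, that of Dnajb9 0.37 and that of Sil1 -0.51.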

Other observations

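The full ERSE occurred in the promoter windows of 28 genes outside the set. Of these, 4 passed the filter of the Treg table under the same symbol. In DSS Treg 3 were lower, beside 33.9% of all genes, with a median of -0.08. Of the same 28 genes, 6 passed in the vector table, and 2 were lower and 4 higher with the Sox12 vector, with a median of 0.07. The window of Alg12, which encodes a mannosyltransferase of the N-glycosylation pathway, shares 173 bases with that of Creld2 on the opposite strand. Alg12 had 11.5 and 9.503 FPKM in untreated and DSS Treg (ratio 0.830) and 7.27 and 6.44 FPKM with the mock and Sox12 vectors (ratio 0.886), beside ratios of 0.907 and 1.04 for Creld2. Ero1b, a further disulphide oxidase of the ER whose window also holds the ERSE, is listed in the tables under its older symbol Ero1lb. It had 5.53 and 5.21 FPKM in the Treg libraries and 3.85 and 3.64 FPKM in the vector libraries. The other 3 genes in the Treg table, which have no known role in ER folding, were Hnrnpa3 at 28.5 and 26.05 FPKM, Pan2 at 19.1 and 18.5 FPKM and Adcy3 at 7.67 and 8.12 FPKM. In the vector libraries they had 31.6 and 35.9 FPKM, 7.49 and 7.20 FPKM, and 4.71 and 5.08 FPKM.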
